A study of Mus musculus with 12 samples.

Results

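The 10 genes described here, Gpnmb, Trem2, Tyrobp, Cd68, Lgals3, Spp1, Lyz2, Itgax, Cd5l and Fcgr4, are expressed by phagocytic macrophages and were read out of a table of 25171 loci measured in mouse hearts. They were chosen by name, with the rise of Gpnmb in EIIa-tg hearts already known, so their values in the EIIa hearts are given as a description without a test. RNA was sequenced from 12 hearts, 3 in each of 4 groups. By the study's description, EIIa-tg mice carried NOTCH2NLC with 98 GGC repeats behind a loxP-stop-loxP sequence at Rosa26. They also carried EIIa-Cre, which is active throughout the body. EIIa-ctl mice carried the same conditional transgene and lacked this Cre. The genotype labels of EIIa-tg replicates 2 and 3 differ from that of replicate 1, and the groups follow the sample titles. Hearts of both groups were taken at postnatal day 30. Myh6-tg and Myh6-ctl mice carried, by their genotype labels, the same conditional transgene and Myh6-creERT2, a Cre that cardiomyocytes make under the Myh6 promoter and that tamoxifen switches on. Myh6-tg mice received tamoxifen at 75 mg per kg in 3 injections from day 60, Myh6-ctl mice received corn oil, and hearts were taken at postnatal day 90.

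GPNMB is a transmembrane glycoprotein of endosomes and lysosomes that macrophages, osteoclasts and pigment cells make. TREM2 is a lipid-sensing receptor on phagocytes that signals through the adaptor TYROBP, also called DAP12, and the macrophages that use it typically also make GPNMB, galectin-3 (Lgals3), osteopontin (Spp1) and the lysosomal glycoprotein CD68. In the heart, macrophages include long-lived resident cells, marked by genes such as Timd4, Lyve1 and Folr2, and cells derived from blood monocytes, and both clear debris and dying cells.

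Between 38343106 and 50969834 reads were counted per heart. Levels are given in CPM, the count of a gene per 1e+06 counts of the library, with libraries scaled by TMM over the 12 hearts. A floor of 3 counts was taken, which is 0.0559 to 0.0822 CPM at these depths. All 7 cardiomyocyte markers and all 16 macrophage markers were detected in every heart. Of the hearts, Myh6-tg replicate 1 stood apart from the other Myh6-tg hearts. Its counts differed from theirs by a chi-square of 254.5 and 304.5 per degree of freedom, against 37.2 between replicates 2 and 3. Mitochondrial genes took 15.5 to 18.6% of the counts in Myh6-tg hearts and 28.5 to 38.3% in all others. Replicate 1 of each group had 4224 to 7307 counts on Y-linked genes and the other hearts at most 2. The 2 Myh6 groups also differed in reads at Esr1, which encodes the estrogen receptor that creERT2 carries a part of. Esr1 was at 2336, 1389 and 1028 CPM in Myh6-ctl hearts, 1.29, 2.49 and 0.988 CPM in Myh6-tg hearts and 0.411 to 1.24 CPM in the EIIa hearts. The Myh6-tg hearts thus had Esr1 levels close to those of mice without this Cre, although their genotype label is that of the Myh6-ctl hearts. What this difference contributes to the results was not tested. Sqstm1, the autophagy receptor p62, was at 355 to 402 CPM in the EIIa-ctl hearts, 796 to 1254 CPM in the EIIa-tg hearts, 447 to 945 CPM in the Myh6-ctl hearts and 1759 to 1981 CPM in the Myh6-tg hearts.

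The genes lie apart in the genome, on 9 chromosomes. In GRCm38, Gpnmb spans positions 49036546 to 49070929 of chromosome 6 on the plus strand, Trem2 48346401 to 48354147 of chromosome 17 on the plus strand, Cd68 69664213 to 69666153 of chromosome 11 on the minus strand, and Itgax 128129547 to 128150657 of chromosome 7 on the plus strand, where Tyrobp also lies at 30413760 to 30417585. Promoter sequences of 9 of the 10 genes were read from RefSeq (GRCm38.p6), each from 250 bases before to 50 bases after a start site. Of 5 motifs searched on both strands in these 10 promoters (Spp1 has 2), the AP-1 motif TGANTCA was found in those of Gpnmb, Trem2, Cd68 and Itgax, whereas 7.81% of all 32851 promoters hold it. These 4 promoters are shown because they share this motif, which is in capitals. In Gpnmb (chr6:49036268-49036567, plus strand) the motif begins 9 bases after the start, in Trem2 (chr17:48346151-48346450, plus strand) 9 bases before it, in Cd68 (chr11:69666121-69666420, minus strand) 149 and 24 bases before it, and in Itgax (chr7:128129300-128129599, plus strand) 56 bases before it. These starts are those of RefSeq. That of Gpnmb, like its motif, lies before the span of the gene given above.
Gpnmb: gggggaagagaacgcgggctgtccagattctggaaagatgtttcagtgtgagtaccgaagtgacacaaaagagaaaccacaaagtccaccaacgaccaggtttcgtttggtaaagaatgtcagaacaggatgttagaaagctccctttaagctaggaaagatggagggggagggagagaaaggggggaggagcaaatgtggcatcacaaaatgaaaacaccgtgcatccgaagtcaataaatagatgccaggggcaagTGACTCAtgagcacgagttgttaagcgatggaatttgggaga
Trem2: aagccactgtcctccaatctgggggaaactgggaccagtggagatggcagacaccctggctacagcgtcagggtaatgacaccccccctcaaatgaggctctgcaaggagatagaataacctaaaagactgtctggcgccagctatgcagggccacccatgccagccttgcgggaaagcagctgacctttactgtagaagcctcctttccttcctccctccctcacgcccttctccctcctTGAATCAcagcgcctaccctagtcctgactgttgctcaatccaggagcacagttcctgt
Cd68: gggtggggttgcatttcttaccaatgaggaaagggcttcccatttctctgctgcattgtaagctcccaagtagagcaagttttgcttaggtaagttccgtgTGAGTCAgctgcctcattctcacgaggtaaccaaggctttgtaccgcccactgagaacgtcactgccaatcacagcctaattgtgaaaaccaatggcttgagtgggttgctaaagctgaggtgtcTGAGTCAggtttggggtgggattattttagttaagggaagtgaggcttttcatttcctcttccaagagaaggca
Itgax: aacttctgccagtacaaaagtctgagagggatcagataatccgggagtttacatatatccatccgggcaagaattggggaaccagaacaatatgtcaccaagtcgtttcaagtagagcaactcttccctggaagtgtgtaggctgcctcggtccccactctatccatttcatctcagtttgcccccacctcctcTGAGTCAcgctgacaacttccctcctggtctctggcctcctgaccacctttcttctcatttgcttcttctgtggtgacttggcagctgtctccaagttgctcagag
The motif AGGAAGT, bound by PU.1, was in the promoters of Fcgr4, Lyz2 and Spp1 and in 9.35% of all promoters. TTGCNNAA, a C/EBP motif, was in those of Cd68, Trem2 and Spp1 and in 10.8% of all promoters. CACGTG and CATGTG, the E-box letters that factors of the MITF and TFE family bind, were in none of the 10 windows and in 7.15% and 14.2% of all promoters. The motifs are of different letters, although TGANTCA and CACGTG read the same on both strands.

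Gpnmb was the lowest of the 4 groups in EIIa-ctl hearts and the highest in Myh6-tg hearts. It was at 1.15, 1.99 and 1.29 CPM in the EIIa-ctl hearts, 18.2, 8.86 and 23.5 CPM in the EIIa-tg hearts, 4.15, 11.2 and 9.06 CPM in the Myh6-ctl hearts and 186, 41.9 and 48.8 CPM in the Myh6-tg hearts. Every transgenic heart lay above every control heart of its model, and the Myh6-tg hearts lay above all others. Myh6-ctl and EIIa-tg hearts, which are neighbours in the order of the group means, overlapped. The log2 fold change between EIIa-tg and EIIa-ctl was 3.52 ± 0.39 (SE). Between Myh6-tg and Myh6-ctl, which is not the contrast that the genes were chosen by, Gpnmb rose by a log2 fold change of 3.52 ± 0.66 (adjusted p = 0.0136, edgeR quasi-likelihood test). Much of the mean of the Myh6-tg hearts came from replicate 1, without which the log2 fold change was 2.50 (adjusted p = 0.00441, edgeR). The call was lost when Myh6-ctl replicate 1 (adjusted p = 0.0578, edgeR) or Myh6-ctl replicate 3 (adjusted p = 0.0507, edgeR) was left out. In the hearts of replicates 2 and 3 alone, none of which had Y-linked counts above 2, it was 2.18 (adjusted p = 0.00318, edgeR), and 3.30 in the EIIa hearts.

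**Figure D1:**
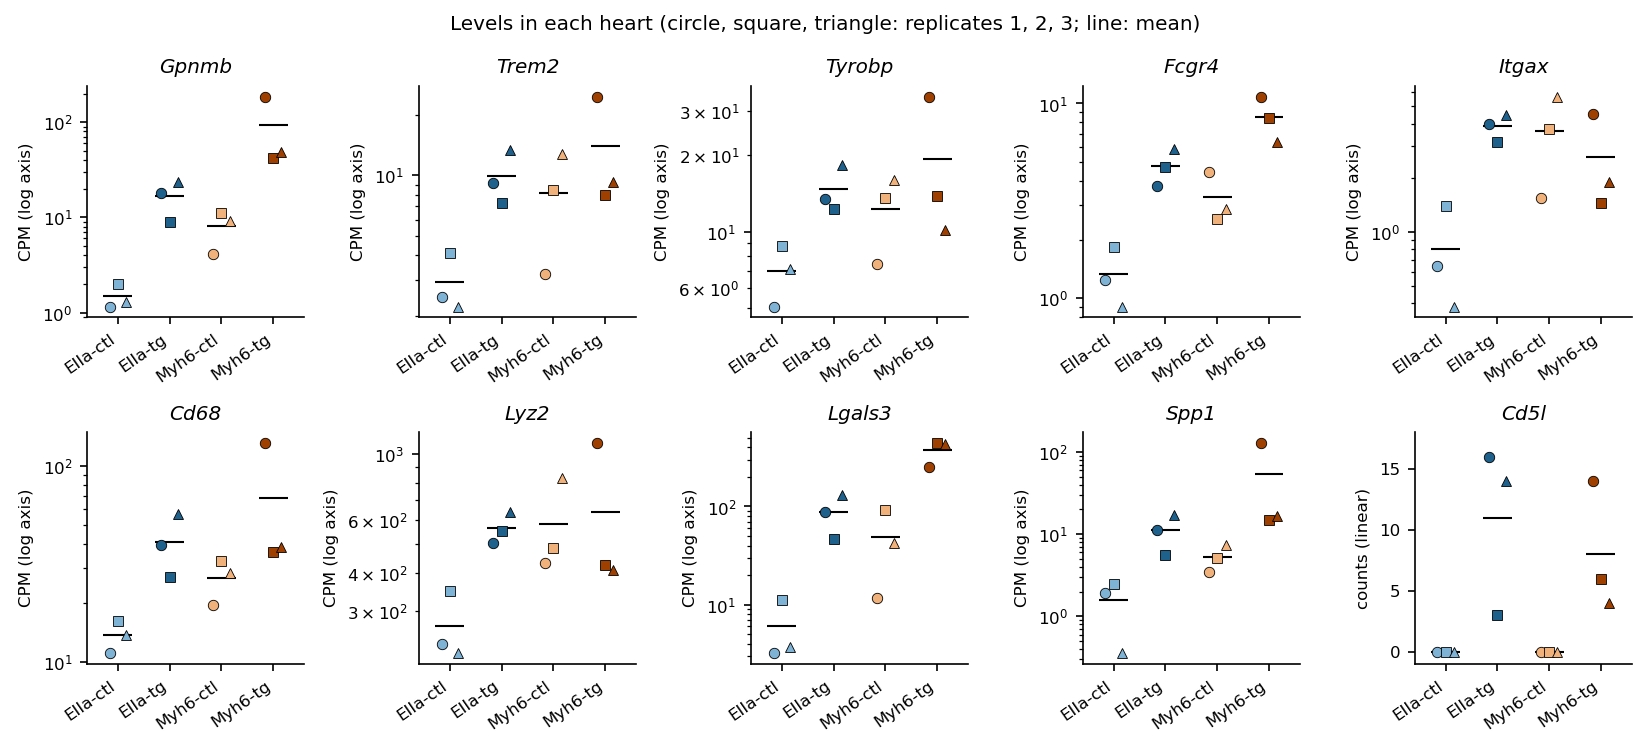
Levels of the 10 genes in each of the 12 hearts by group, in CPM on a log axis for 9 genes and in counts on a linear axis for Cd5l. Each symbol is a heart, and the line is the group mean. EIIa-tg hearts lie above EIIa-ctl hearts for all 10 genes, Myh6-tg hearts lie above Myh6-ctl hearts for 6, and Myh6-tg replicate 1 (circle) is the highest heart of its group for 9 of the 10, with Lgals3 the exception.

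Trem2 and its adaptor Tyrobp were both higher in EIIa-tg than in EIIa-ctl hearts, and neither passed the test in Myh6-tg hearts. Trem2 was at 2.49, 4.12 and 2.22 CPM in the EIIa-ctl hearts, 9.15, 7.25 and 13.3 CPM in the EIIa-tg hearts, 3.22, 8.5 and 12.8 CPM in the Myh6-ctl hearts and 24.7, 8.02 and 9.30 CPM in the Myh6-tg hearts. The EIIa groups did not overlap, and the Myh6 groups did. Tyrobp was at 5.04, 8.77 and 7.09 CPM in the EIIa-ctl hearts, 13.4, 12.2 and 18.3 CPM in the EIIa-tg hearts, 7.46, 13.5 and 15.9 CPM in the Myh6-ctl hearts and 34.2, 13.9 and 10.2 CPM in the Myh6-tg hearts. Again only Myh6-tg replicate 1 exceeded all Myh6-ctl hearts. The log2 fold changes were 1.76 ± 0.30 (SE) for Trem2 and 1.08 ± 0.23 for Tyrobp in the EIIa comparison. In the Myh6 comparison they were 0.79 ± 0.58 for Trem2 (adjusted p = 0.376, edgeR) and 0.67 ± 0.47 for Tyrobp (adjusted p = 0.359, edgeR), and without Myh6-tg replicate 1 that of Tyrobp was -0.02. In replicates 2 and 3 alone both were below 0, at -0.29 for Trem2 and -0.28 for Tyrobp.

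Fcgr4 and Itgax, the other surface receptors of the group, went apart in the Myh6 hearts. Fcgr4, on chromosome 1 at 171018920 to 171029761, encodes an activating Fc receptor for IgG. It was at 1.24, 1.84 and 0.904 CPM in the EIIa-ctl hearts, 3.75, 4.71 and 5.82 CPM in the EIIa-tg hearts, 4.47, 2.55 and 2.86 CPM in the Myh6-ctl hearts and 10.9, 8.45 and 6.38 CPM in the Myh6-tg hearts. No transgenic heart overlapped the controls of its model. Its log2 fold change was 1.85 ± 0.32 (SE) in EIIa-tg hearts, and Fcgr4 rose in Myh6-tg hearts by 1.4 ± 0.32 (adjusted p = 0.0238, edgeR). Itgax encodes CD11c, the integrin alpha X chain of dendritic cells and of some activated macrophages. It was at 0.645, 1.39 and 0.383 CPM in the EIIa-ctl hearts, 4.0, 3.14 and 4.49 CPM in the EIIa-tg hearts, 1.54, 3.74 and 5.66 CPM in the Myh6-ctl hearts and 4.51, 1.44 and 1.90 CPM in the Myh6-tg hearts. Itgax was the only member whose mean was lower in Myh6-tg than in Myh6-ctl hearts, and these groups overlapped. Its log2 fold change was 2.27 ± 0.44 in EIIa-tg hearts and -0.46 ± 0.59 in Myh6-tg hearts (adjusted p = 0.626, edgeR). With the hearts of replicates 2 and 3 alone it was -1.48 in the Myh6 hearts and passed (adjusted p = 0.0425, edgeR).

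Of the lysosomal genes, Cd68 was closer to the pattern of Gpnmb than Lyz2. Cd68 encodes a glycoprotein of the lysosome membrane that is widely used as a macrophage stain. It was at 11.1, 16.3 and 13.8 CPM in the EIIa-ctl hearts, 39.6, 27 and 56.5 CPM in the EIIa-tg hearts, 19.5, 32.7 and 28.3 CPM in the Myh6-ctl hearts and 131, 36.4 and 38.4 CPM in the Myh6-tg hearts. All transgenic hearts were above the controls of their model, but Myh6-tg replicates 2 and 3 were above the highest Myh6-ctl heart by little. The log2 fold change was 1.59 ± 0.26 (SE) in EIIa-tg hearts and 1.37 ± 0.50 in Myh6-tg hearts, which did not pass the test (adjusted p = 0.0976, edgeR). Lyz2 encodes lysozyme, a secreted and lysosomal enzyme of myeloid cells, and had the highest FPKM of the 10 genes in every group (178 in the EIIa-ctl hearts, 436 in the EIIa-tg hearts, 407 in the Myh6-ctl hearts and 561 in the Myh6-tg hearts). FPKM take the length of the transcript into account, so that levels of different genes can be compared. In CPM, Lyz2 was at 232, 349.5 and 217 in the EIIa-ctl hearts, 505, 553 and 642 in the EIIa-tg hearts, 435, 487 and 829 in the Myh6-ctl hearts and 1085, 427 and 409 in the Myh6-tg hearts. Only Myh6-tg replicate 1 lay above the Myh6-ctl hearts, and the other Myh6-tg hearts lay below all of them. The log2 fold change of Lyz2 was 1.09 ± 0.19 in EIIa-tg hearts and 0.15 ± 0.44 in Myh6-tg hearts (adjusted p = 0.845, edgeR). Without Myh6-tg replicate 1 it was -0.47, and without Myh6-ctl replicate 1 it was -0.02. Lyz2 lies beside its near-identical paralog Lyz1 on chromosome 10 (117277331 to 117282321 for Lyz2), so that reads could have been split between them. Lyz1 was at 0.507 to 9.37 CPM over the hearts, far below Lyz2.

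Lgals3 and Spp1, which encode secreted proteins, were higher in every transgenic heart than in the controls of their model. Lgals3, on chromosome 14 at 47367751 to 47386160, encodes galectin-3, a lectin that binds beta-galactosides on cell surfaces and damaged lysosomes. It was at 3.20, 11.1 and 3.67 CPM in the EIIa-ctl hearts, 86.8, 47.0 and 130.3 CPM in the EIIa-tg hearts, 11.6, 91.9 and 42.5 CPM in the Myh6-ctl hearts and 254, 443 and 437 CPM in the Myh6-tg hearts. Unlike for the other genes, Myh6-tg replicate 1 was the lowest heart of its group, and the Myh6-ctl hearts were widely spread. The log2 fold change was 3.88 ± 0.55 (SE) in EIIa-tg hearts, and Lgals3 rose by 2.98 ± 0.67 in Myh6-tg hearts (adjusted p = 0.0226, edgeR). Spp1, on chromosome 5 at 104435118 to 104441050, encodes osteopontin, an adhesive glycoprotein that binds integrins and CD44. It was at 1.91, 2.49 and 0.356 CPM in the EIIa-ctl hearts, 11.3, 5.64 and 16.9 CPM in the EIIa-tg hearts, 3.45, 5.15 and 7.45 CPM in the Myh6-ctl hearts and 129, 15.1 and 16.5 CPM in the Myh6-tg hearts. Every transgenic heart was above the controls of its model, with Myh6-tg replicate 1 far above the rest. The log2 fold change was 2.83 ± 0.61 in EIIa-tg hearts, and Spp1 rose by 3.33 ± 0.87 in Myh6-tg hearts (adjusted p = 0.0358, edgeR). Without Myh6-tg replicate 1 the log2 fold change was 1.57 (adjusted p = 0.0121, edgeR). The rise of Spp1 did not pass with the replicate number as a block (log2 fold change 2.50, adjusted p = 0.0765, edgeR).

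Cd5l, on chromosome 3 at 87357881 to 87371073, encodes a secreted scavenger protein of tissue macrophages, also called AIM. It was not counted in any of the 6 control hearts, in each of which a count of 0 allows up to the floor of 3 counts. In EIIa-tg hearts 16, 3 and 14 reads were counted and in Myh6-tg hearts 14, 6 and 4. Set against this floor in each control heart, Cd5l was at least 3.19-fold higher in EIIa-tg and at least 2.45-fold higher in Myh6-tg hearts over the group. It did not pass the filter on low counts and was not tested, and the reads in EIIa-tg replicate 2 were at the floor.

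For 7 of the 10 genes (Gpnmb, Trem2, Tyrobp, Cd68, Lgals3, Spp1 and Fcgr4) the group means rose in the order EIIa-ctl, Myh6-ctl, EIIa-tg and Myh6-tg. Myh6-ctl and EIIa-tg hearts overlapped for all 7, and EIIa-tg and Myh6-tg hearts were apart for Gpnmb, Lgals3 and Fcgr4. Over the 10 genes, no EIIa-tg heart overlapped the EIIa-ctl hearts for any gene, which is the contrast in which Gpnmb was picked and is given without a test. Of all genes tested, 20% had every EIIa-tg above every EIIa-ctl heart. The median log2 fold change of the 9 genes that passed the filter was 1.85 there, against 0.02 over the 14908 genes tested, of which 8.65% passed as higher and 8.3% as lower (adjusted p under 0.05). On the scale of log2(FPKM + 1) the median of all genes moved to 0.16, and of the calls 2361 were then higher and 667 lower, where the CPM gave 1289 and 1238. In the Myh6 hearts it moved to 0.34, with 3328 higher and 900 lower against 1370 and 1435. In the Myh6 hearts 6 of the 10 genes did not overlap (Gpnmb, Cd68, Lgals3, Spp1, Cd5l and Fcgr4), and 19.8% of all genes tested had every Myh6-tg above every Myh6-ctl heart. Of the 9 genes tested there, 4 rose (Gpnmb, Lgals3, Fcgr4 and Spp1) and none fell, where 8.96% of all 15298 genes tested were called higher and 9.38% lower. Fcgr4, Gpnmb, Lgals3 and Spp1 stayed above 0 with every heart left out in turn. With DESeq2 4 of 9 genes passed, Cd68 among them, and Spp1 had no adjusted p. With the replicate block 3 of 9 passed, and under the stricter limits of the study, an adjusted p of 0.01 and a doubling, 0 did, with 5 at an unadjusted p under 0.05. The call of 4 fell to 2 without Myh6-ctl replicate 1, Myh6-ctl replicate 2 or Myh6-tg replicate 2, and to 0 without Myh6-ctl replicate 3. The adjusted p of Lgals3 was at most 0.084, that of Fcgr4 0.0773 and that of Spp1 0.129 as hearts were left out (edgeR). The median log2 fold change of the 9 genes was 1.37, against 0.03 over all genes tested. It fell to 0.495 without Myh6-tg replicate 1 and to 0.31 with replicates 2 and 3 alone.

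**Figure D2:**
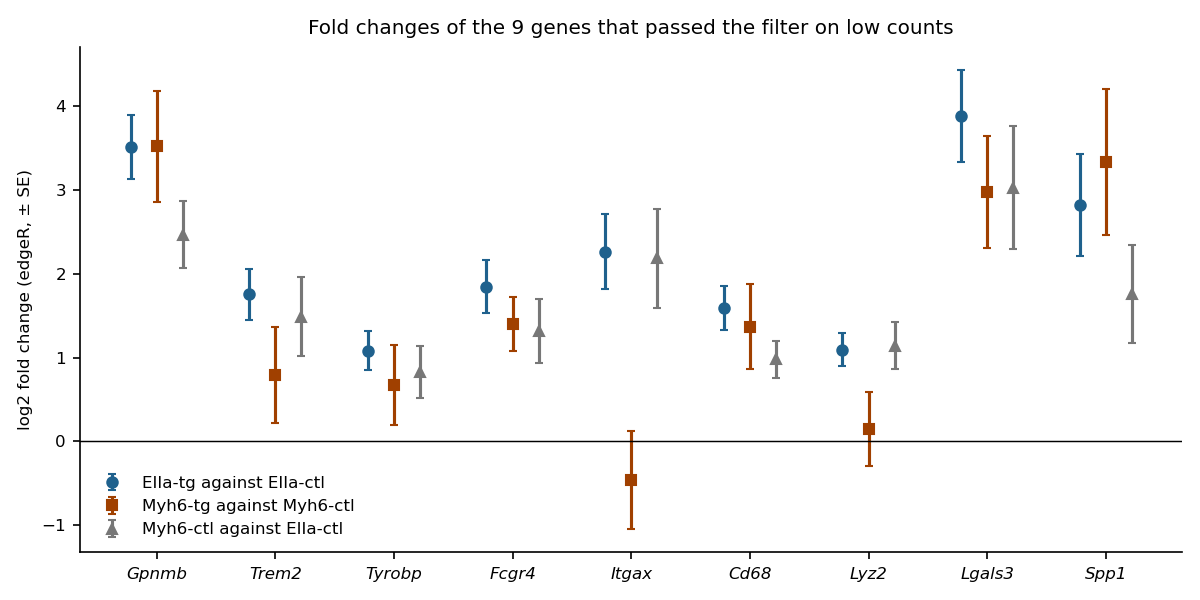
Log2 fold changes with their SE (bars) for the 9 genes that passed the filter on low counts, in EIIa-tg against EIIa-ctl (circles), Myh6-tg against Myh6-ctl (squares) and Myh6-ctl against EIIa-ctl (triangles). Gpnmb has the same fold change, 3.52, in both models, whereas Itgax has 2.27 in the EIIa and -0.46 in the Myh6 comparison.

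The controls of both models were not at the same level. The Myh6-ctl hearts lay above the EIIa-ctl hearts without overlap for 7 of the 10 genes, namely Gpnmb, Cd68, Lgals3, Spp1, Lyz2, Itgax and Fcgr4, and so did 8.34% of all 14990 genes tested. In Myh6-ctl against EIIa-ctl the log2 fold changes were 3.03 ± 0.73 (SE) for Lgals3, 2.47 ± 0.40 for Gpnmb, 2.19 ± 0.59 for Itgax and 0.83 ± 0.31 for Tyrobp, the lowest of the 9. Over all genes 0.02% were called higher and 0.0133% lower in this comparison. This comparison and that of EIIa-tg share the EIIa-ctl hearts, and age, Cre line and oil injection cannot be told apart in it. The change in Myh6-tg minus that in EIIa-tg was -2.73 for Itgax, -0.97 for Trem2, -0.95 for Lyz2, -0.91 for Lgals3 and 0.50 for Spp1 on the log2 scale, without a test for these genes. Over all 15929 genes 1.65% differed upwards and 2.27% downwards.

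The summed level of macrophage markers was lower in EIIa-ctl hearts than in all other hearts, while the Myh6-ctl and Myh6-tg hearts overlapped. In bulk tissue, more macrophages, more RNA of macrophage genes per macrophage and RNA of these genes from other cells cannot be told apart. The summed CPM of 16 macrophage markers that include none of the 10 genes was 351 to 540 in the EIIa-ctl hearts, 723 to 979 in the EIIa-tg hearts, 628 to 916 in the Myh6-ctl hearts and 844 to 1894 in the Myh6-tg hearts, the highest being Myh6-tg replicate 1. Lgals3, by contrast, was lowest of the Myh6-tg hearts in that replicate. The summed CPM of 7 cardiomyocyte markers was 32687 to 39555 in the EIIa-ctl hearts, 15510 to 29331 in the EIIa-tg hearts, 25949 to 34522 in the Myh6-ctl hearts and 9054 to 27975 in the Myh6-tg hearts. It was lower in every EIIa-tg than in every EIIa-ctl heart, while the Myh6 groups overlapped through Myh6-tg replicate 1, the highest of its group here too. The summed CPM of 5 atrial cardiomyocyte markers was 118 to 358 in the EIIa-ctl hearts, 507 to 779 in the EIIa-tg hearts, 153 to 1824 in the Myh6-ctl hearts and 4150.5 to 6443 in the Myh6-tg hearts. The 5 red blood cell markers summed to 1554.5 to 2627 CPM in the EIIa-ctl hearts, 198 to 1287 CPM in the EIIa-tg hearts, 5243 to 8165 CPM in the Myh6-ctl hearts and 1849 to 3398 CPM in the Myh6-tg hearts. In both models the atrial sum was higher and the red blood cell sum lower in every transgenic than in every control heart. Of the 5 atrial markers, however, 2 passed the filter on low counts in the EIIa comparison and 3 in the Myh6 comparison. The 2 in the EIIa hearts were Nppa and Myl4, at log2 fold changes of 1.46 and 1.00. Whether the share of atrial tissue or the level of these marker genes within other heart tissue differed was not tested. The part of the marker sums in the levels of the 10 genes was not tested either. To describe the 10 genes beside these markers, their CPM was taken per 100 CPM of the markers in each heart. Gpnmb was then at 0.34 ± 0.04 (SD, n = 3) in the EIIa-ctl hearts, 2.04 ± 0.72 in the EIIa-tg hearts, 1.07 ± 0.46 in the Myh6-ctl hearts and 6.75 ± 2.72 in the Myh6-tg hearts. It remained without overlap in both models, with ratios of the means of 5.97 and 6.30. Lgals3 was 8.13 times higher in EIIa-tg and 5.92 times higher in Myh6-tg hearts on this scale, and Spp1 3.88 and 5.01 times, also without overlap. Without Myh6-tg replicate 1 the ratios in the Myh6 hearts were 4.87 for Gpnmb, 7.84 for Lgals3 and 2.61 for Spp1. The other genes with a ratio changed less on this scale. In the EIIa hearts Trem2, Lyz2, Itgax, Fcgr4 and Cd5l also did not overlap, and only Tyrobp and Cd68 overlapped in both models. Tyrobp differed by 1.10 times in EIIa-tg and 0.94 times in Myh6-tg hearts, Cd68 by 1.54 and 1.44 times, and Fcgr4 by 1.93 and 1.64 times. Trem2 per marker was 1.79 times higher in EIIa-tg and 1.06 times in Myh6-tg hearts. Lyz2 and Itgax per marker were at 1.14 and 2.72 times in EIIa-tg hearts. They were lower in all 3 Myh6-tg than in all 3 Myh6-ctl hearts, at 0.67 and 0.45 times. In 3 against 3 hearts the two-sided exact permutation test cannot go below p = 0.1, and in the Myh6 hearts this smallest value was reached by Gpnmb, Lgals3, Spp1, Cd5l, Lyz2 and Itgax. Since the markers changed unevenly, as described next, these ratios depend on the list.

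**Figure D3:**
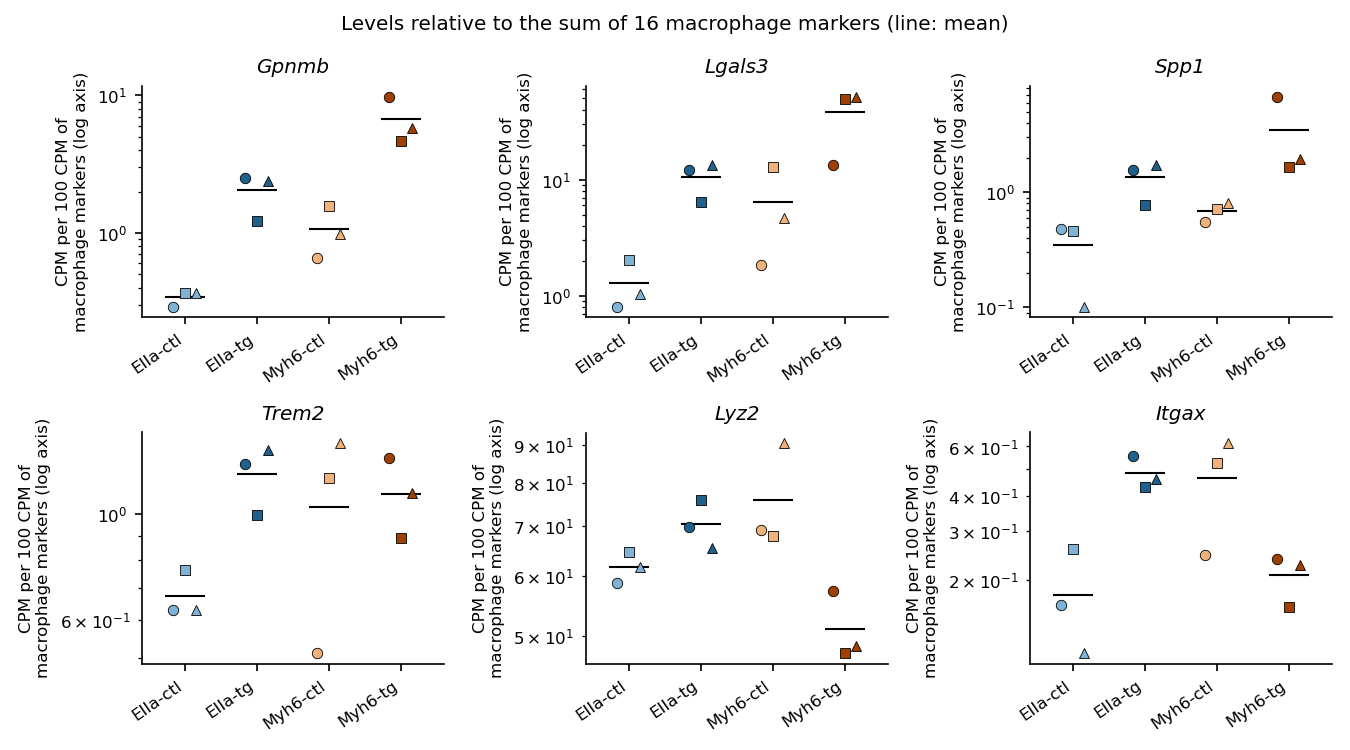
CPM of 6 of the genes per 100 CPM of 16 macrophage markers in each heart, on a log axis, with the line at the group mean. Gpnmb, Lgals3 and Spp1 are higher in all transgenic than in all control hearts of their model, while Lyz2 and Itgax are lower in the Myh6-tg than in the Myh6-ctl hearts.

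In EIIa-tg hearts 14 of the 16 macrophage markers rose and none fell, with a median log2 fold change of 0.89. Cd14, the lipopolysaccharide co-receptor, rose by 1.32 ± 0.16 (SE), Mpeg1, a pore-forming protein of phagosomes, by 1.53 ± 0.22, and Laptm5, a lysosomal membrane protein, by 0.89 ± 0.16 (adjusted p = 0.0135 to 0.018, edgeR). Cx3cr1 and Aif1 were at 0.19 and 0.18 and did not pass. In replicates 2 and 3 alone, which are alike in their Y-linked counts, none of the 16 was called, nor was any gene of the other lists, and their median was 0.90. Of the 8 resident macrophage markers, 5 rose and Timd4, a phosphatidylserine receptor, fell by 1.15 ± 0.31 (adjusted p = 0.0403, edgeR). In Myh6-tg hearts none of the 16 macrophage markers rose by edgeR, with 4 higher at an unadjusted p under 0.05 and 3 called higher by DESeq2. Of the 16, 10 had a log2 fold change above 0, as had 52.1% of all genes tested. The 4 at an unadjusted p under 0.05 were Ctss at 1.79, Cd14 at 1.67, Mpeg1 at 1.14 and Laptm5 at 0.75 (adjusted p = 0.0594 to 0.13, edgeR). The median of the 16 was 0.48, and 0.16 without Myh6-tg replicate 1. Aif1, which encodes IBA1, fell by 1.89 ± 0.42 (adjusted p = 0.0209, edgeR), from 4.13, 3.74 and 6.92 CPM to 1.67, 0.817 and 1.45 CPM. This call ended without Myh6-ctl replicate 1 or 3 or Myh6-tg replicate 2 or 3 (adjusted p up to 0.0698, edgeR). Among the resident markers Timd4 fell by 3.93 ± 0.72, Cbr2 by 1.75 ± 0.25 and Folr2 by 1.39 ± 0.24 in Myh6-tg hearts (adjusted p = 0.0124, 0.00583 and 0.0109, edgeR), and none of the 8 rose, with 2 higher at an unadjusted p under 0.05, Cd163 at 1.42 and Mrc1 at 0.69, and 1 by DESeq2. The change between models differed for Aif1 (adjusted p = 0.0312, edgeR interaction), Adgre1 (adjusted p = 0.0289), Cbr2 (adjusted p = 0.00386) and Folr2 (adjusted p = 0.0239), each lower in Myh6-tg.

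The genes of the TREM2-linked phagocyte programme, which encode mainly lysosomal and lipid-handling proteins, rose in part in both models. In EIIa-tg hearts 17 of 27 tested rose and none fell, with a median log2 fold change of 0.64. Atp6v0d2, a subunit of the vacuolar proton pump of osteoclasts and macrophages, rose by 4.09 ± 0.52, Mmp12, macrophage elastase, by 3.54 ± 0.53, the heme oxygenase Hmox1 by 1.91 ± 0.22, and Apoe, the apolipoprotein that TREM2 binds, by 0.96 ± 0.15 (adjusted p = 0.0135 to 0.0166, edgeR). In Myh6-tg hearts 9 of 27 rose and none fell, with a median of 0.73. These included the cathepsins Ctsl (1.58 ± 0.22), Ctsk (2.11 ± 0.30) and Ctsz (1.00 ± 0.17) and the cathepsin inhibitor Cstb (1.69 ± 0.26, adjusted p = 0.00561 to 0.0101, edgeR). Ctsl rose more in the Myh6 than in the EIIa comparison (difference of 1.18 on the log2 scale, adjusted p = 0.0192, edgeR). Such proteases and Hmox1 are also made by cells other than macrophages, including cardiomyocytes.

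The list of TYROBP and Fc receptor signalling holds genes that relay the signal of Trem2 and of Fcgr4 together with inhibitory receptors. In EIIa-tg hearts 9 of its 21 tested genes rose and none fell, with a median of 0.88. Those that rose included the kinase Syk (1.09 ± 0.16), the membrane protein Ms4a6d (1.80 ± 0.23) and the inhibitory receptor Pirb (1.41 ± 0.22, adjusted p = 0.0135 to 0.0166, edgeR). In Myh6-tg hearts none of 21 rose by edgeR, with 5 higher at an unadjusted p under 0.05 and 3 by DESeq2, and the inhibitory receptor gene Pilra fell by 1.80 ± 0.52 (adjusted p = 0.0492, edgeR). The fall of Pilra did not pass with the replicate number as a block (adjusted p = 0.0834, edgeR) or with any heart left out. The median was 0.23. The change differed between models for 1 gene of the list, Pilra (adjusted p = 0.0462, edgeR).

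Among phagocytic and scavenger receptors, 15 of 26 rose and 2 fell in EIIa-tg hearts, with a median of 0.76. The integrin chain Itgb2 rose by 1.34 ± 0.17, the inhibitory Fc receptor Fcgr2b by 1.36 ± 0.20 and the activating Fc receptor Fcgr3 by 0.99 ± 0.17 (adjusted p = 0.0135 to 0.0166, edgeR), and Timd4 and the HDL receptor Scarb1 fell. In Myh6-tg hearts 4 of 27 rose and 1 fell, with a median of 0.62. Of all genes tested there, 8.96% were called higher and 9.38% lower. Tyro3 and Axl, receptors for phosphatidylserine bridging proteins, rose by 1.29 ± 0.26 and 0.95 ± 0.27, the bridging protein Mfge8 by 1.23 ± 0.28 and Fcgr2b by 1.37 ± 0.40 (adjusted p = 0.0157 to 0.0485, edgeR), whereas Timd4 was the gene that fell. No gene of this list differed between models by edgeR, with 5 at an unadjusted p under 0.05 and 2 called by DESeq2.

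Galectin-3, osteopontin and GPNMB bind integrins, CD44 and proteoglycans. The list of 12 genes holds such partners together with Lgals1, Lgals9, Lgals3bp and Mrc1. Of these 12 genes 5 rose in Myh6-tg hearts and none fell, with a median of 0.73, namely the integrin chains Itgb5 (1.36 ± 0.19), Itgb1 (1.19 ± 0.21) and Itgb3 (1.53 ± 0.40), the osteopontin receptor Cd44 (1.26 ± 0.26) and Sdc4, a heparan sulfate proteoglycan to which GPNMB binds (0.77 ± 0.18, adjusted p = 0.00583 to 0.037, edgeR). In EIIa-tg hearts, where the median was 0.35, Cd44 and Mrc1, the mannose receptor, rose and the integrin chain Itga9 fell by 1.31 ± 0.22 (adjusted p = 0.0166, edgeR). The changes of Itgb5, Itgb1 and Itga9 were higher in the Myh6 than in the EIIa comparison (adjusted p = 0.0134, 0.0153 and 0.0492, edgeR). Of 14 transcription factors of the MITF and TFE family and of myeloid cells, those that rose in EIIa-tg hearts included Spi1 (which encodes PU.1), Cebpb, Cebpa and Zeb2, with a median of 0.51 over the list, and Mitf, which drives Gpnmb in pigment cells and osteoclasts, fell by 0.66 ± 0.15 (adjusted p = 0.0271, edgeR). In Myh6-tg hearts Runx1 rose by 1.33 ± 0.23 (adjusted p = 0.011, edgeR), and Mitf was at -1.17 and did not pass, with a median of 0.18. Spi1, Mrc1, Axl and Timd4 are among the genes that stand in more than 1 of these lists.

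**Figure D4:**
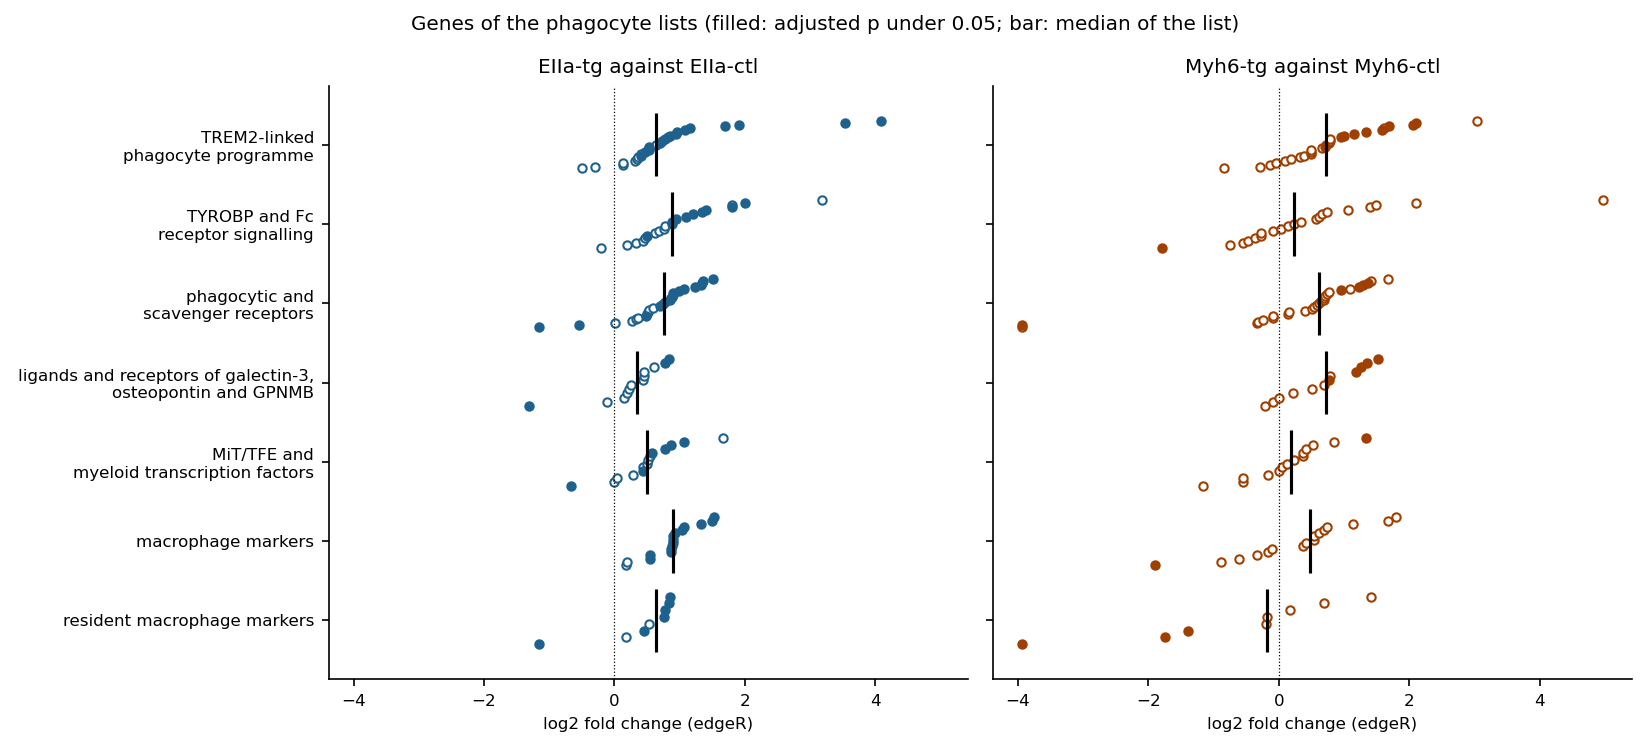
Log2 fold changes of the genes of 7 lists in EIIa-tg against EIIa-ctl (left) and Myh6-tg against Myh6-ctl (right). Each point is a gene, filled at an adjusted p under 0.05, and the bar is the median of the list. The macrophage markers have a median of 0.89 with 14 filled points in the EIIa hearts and of 0.48 with 1, Aif1, in the Myh6 hearts.

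The calls in the EIIa hearts depended on which hearts were used. Over all genes 2527 were called, of which none remained without EIIa-ctl replicate 1 or without EIIa-tg replicate 1, 1 without EIIa-ctl replicate 3 and 133 without EIIa-tg replicate 3, while 4079 were called without EIIa-tg replicate 2 (edgeR). Where none were called, 4036 and 4173 genes had an unadjusted p under 0.05. With replicates 2 and 3 alone none were called either, with 2824 at an unadjusted p under 0.05. Accordingly the number of macrophage markers called higher ranged from 0 to 13 and that of the TREM2-linked genes from 0 to 19 as hearts were left out, their medians running from 0.76 to 1.09 and from 0.50 to 0.77. In the Myh6 hearts, the number of TREM2-linked genes called higher ranged from 4, without Myh6-ctl replicate 1, to 11. The 4 phagocytic and scavenger receptors called higher went to 0 without Myh6-ctl replicate 1 or Myh6-tg replicate 3, to 1 without Myh6-ctl replicate 3 or Myh6-tg replicate 2 and to 2 without Myh6-ctl replicate 2. The 5 partners of galectin-3, osteopontin and GPNMB went to 2 without Myh6-ctl replicate 1 or Myh6-tg replicate 2 or 3 and to 3 without Myh6-ctl replicate 3, and the call of Itgb3 was lost with any heart left out. Ctsl, Ctsk, Cstb, Itgb5, Runx1, Cbr2 and Folr2 passed with every heart left out in turn. In Myh6-ctl against EIIa-ctl none of the 16 macrophage markers was called by edgeR, with 14 higher at an unadjusted p under 0.05 and 10 called higher by DESeq2, and their median was 0.84.

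GPNMB is also made by pigment cells. The summed CPM of 8 melanocyte markers was 4.05 to 5.56 in the EIIa-ctl hearts, 7.04 to 9.57 in the EIIa-tg hearts, 4.94 to 8.35 in the Myh6-ctl hearts and 2.40 to 11.8 in the Myh6-tg hearts. The pigment enzymes Tyr and Tyrp1 were at 0 counts in all EIIa and Myh6-ctl hearts. In Myh6-tg hearts Tyr was at 0.127, 0 and 0.205 CPM and Tyrp1 at 0, 0.215 and 0 CPM. Mlana, a melanosomal protein, rose by 3.54 ± 0.52 in EIIa-tg hearts (adjusted p = 0.016, edgeR), from 0.138, 0.446 and 0.164 to 2.58, 2.07 and 4.04 CPM. The part of melanocytes in the level of Gpnmb was not tested.

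The genes whose levels over the 12 hearts were most like that of Gpnmb were found by the Pearson correlation of log2 CPM over 13100 genes with a mean of at least 1 CPM. This is a description, as the hearts share their groups and the scale of the library. The closest was Adam8, a membrane protease of myeloid cells, with r = 0.985, followed by Srxn1 (0.977), which reduces peroxiredoxins, Akip1 (0.976), the plasma glutathione peroxidase Gpx3 (0.975), the aldo-keto reductase Akr1b8 (0.974), Grn (0.973), which encodes progranulin, and Lamp2 (0.972), a lysosomal membrane protein. Ikbke, Junb and Fcgr2b each had r = 0.969. Adam8 was at 0.391, 0.551 and 0.329 CPM in the EIIa-ctl hearts, 6.77, 2.72 and 9.82 CPM in the EIIa-tg hearts, 1.45, 3.28 and 4.2 CPM in the Myh6-ctl hearts and 132, 11.4 and 10.7 CPM in the Myh6-tg hearts. Like Gpnmb, it did not overlap between the groups of either model and was highest in Myh6-tg replicate 1. Of the 10 genes described here, Cd68 (r = 0.949) was 53rd, Spp1 (0.943) 72nd, Lgals3 (0.940) 85th, Fcgr4 (0.913) 200th and Trem2 (0.894) 314th in this order. Tyrobp (0.851) was 661st, Lyz2 (0.755) 1555th and Itgax (0.657) 2499th, and Cd5l was below 1 CPM.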

How the data were processed

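Heart RNA of 12 mice was sequenced as paired-end reads. The authors mapped reads to GRCm38 with Hisat2, and the labels name HISAT2 2.0.4, StringTie 2.2.1, DESeq2 and the builds GRCm39 and mm10. The authors deposited counts, which are not normalized, and FPKM, which they scaled by transcript length and mapped fragments. The counting program, its annotation and its use of strand are not given in the sources used here. Extraction batches were not given either, and p-values measure the spread between the hearts.

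The 10 genes, the gene and marker lists, the tests and the thresholds were chosen with earlier results of these data known. Groups were taken from sample titles, since the genotype field of EIIa-tg replicates 2 and 3 differs from that of replicate 1. Genes kept by filterByExpr (edgeR 4.0.16, R 4.3.3) were scaled by TMM and went through glmQLFit and glmQLFTest, using the 6 hearts of a comparison, or all 12 for the difference between models, with Benjamini-Hochberg adjustment over all genes tested. A gene was called at an adjusted p under 0.05. The SE of a log2 fold change is its size divided by the square root of F. Simulated data with known changes were used to test the scripts. Named genes were the 10 members, up to 4 called genes per list and comparison with the lowest adjusted p together with genes a result turns on, the 10 genes closest to Gpnmb, and Sqstm1 and Esr1. Further list genes were named after their values were seen where they complete a small count. Some genes of the lists are counted but not reported here by name.

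Same-numbered Myh6 hearts deviated together from their group means (r = 0.279, 0.179 and 0.185 over 15298 genes), so that the replicate number was also fitted as a block there. In the EIIa hearts r was 0.068, -0.083 and -0.082. Alternatives were DESeq2 1.42.0, RLE factors, no filter, a filter at 1 CPM in 3 or more hearts, an adjusted p under 0.01 with a log2 fold change of 1 or more, no mt- genes, replicates 2 and 3 only, each heart left out, all 12 hearts in one fit, and limma 3.58.1 on log2(FPKM + 1) and log2(FPKM + 0.1) of genes at 0.5 FPKM or more in 3 hearts. Permutation tests used scipy 1.17.1 and figures matplotlib 3.10.9. SE and SD include the spread between the hearts, whereas floors cover counting error only.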

Additional observations from a re-analysis of the deposited data

Results flagged for a closer look

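Over all 12 hearts, the change in Myh6-tg minus that in EIIa-tg hearts differed from 0 for 13 genes of the lists by the interaction term of edgeR (adjusted p under 0.05). Of all 15929 genes tested, 1.65% differed upwards and 2.27% downwards. The differences below are on the log2 scale. The difference was below 0 for 7 genes, at -2.28 for Cbr2 (adjusted p = 0.00386), -2.07 for Aif1 (adjusted p = 0.0312), -1.64 for Adgre1 (adjusted p = 0.0289), -1.57 for Folr2 (adjusted p = 0.0239), -2.23 for Pilra (adjusted p = 0.0462), -1.06 for Nr1h3 (adjusted p = 0.0300) and -3.43 for Plac8, a gene of classical monocytes (adjusted p = 0.0316). All 7 had log2 fold changes above 0 in EIIa-tg and below 0 in Myh6-tg hearts, at 0.53 and -1.75 for Cbr2, 0.18 and -1.89 for Aif1, 1.04 and -0.60 for Adgre1, which encodes F4/80, 0.18 and -1.39 for Folr2, 0.43 and -1.80 for Pilra, 0.51 and -0.54 for Nr1h3, and 2.51 and -0.92 for Plac8. Within a single model, only Adgre1 and Plac8 of these were called in EIIa-tg hearts. In Myh6-tg hearts only Cbr2, Aif1, Folr2 and Pilra were, so that none was called in both models. The difference was above 0 at 1.18 for Ctsl (adjusted p = 0.0192), 1.13 for Itgb5 (adjusted p = 0.0134), 1.04 for Itgb1 (adjusted p = 0.0153), 1.22 for Itga9 (adjusted p = 0.0492), 1.81 for Ace, which is on the list of monocyte markers like Plac8 (adjusted p = 0.00909), and 3.40 for Postn, which encodes periostin and is made by activated fibroblasts (adjusted p = 0.0154). Cbr2, Ace, Itgb5 and Postn passed with each of the 12 hearts left out in turn, and the other genes did not. For the 10 members the difference was not tested.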

How the results depend on the processing

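Between Myh6-tg and Myh6-ctl, 4 of the 9 members tested were called, and 0 to 4 with each heart left out. At an adjusted p under 0.01 with a log2 fold change of 1 or more 0 were. With replicates 2 and 3 only, the log2 fold changes of Trem2, Tyrobp and Lyz2 turned to -0.29, -0.28 and -0.64. With each heart left out, that of Tyrobp ran from -0.021 to 0.98 and that of Lyz2 from -0.47 to 0.48. Over all genes, the stricter thresholds gave 0 instead of 2527 calls in EIIa-tg, 608 instead of 2805 in Myh6-tg and 99 instead of 624 for the difference between models. With each heart left out there were 0 to 4079, 798 to 4269 and 293 to 1727, and 3 to 98 instead of 5 between the control groups. All 12 hearts in one fit gave 227 calls in EIIa-tg and 5049 in Myh6-tg, limma on log2(FPKM + 1) gave 4228 in Myh6-tg, and replicates 2 and 3 only gave 0 in EIIa-tg, with 2824 at an unadjusted p under 0.05 (edgeR). DESeq2 gave 1396 for the difference between models. Between the control groups DESeq2 called 429 genes, no filter 65, the filter on CPM 11, replicates 2 and 3 only 8, and limma on log2(FPKM + 0.1) 8. The causes were not tested. The replicate number as a block left 1 call in EIIa-tg, none of it in the marker and pathway lists, with 4583 genes at an unadjusted p under 0.05 (edgeR), and gave 27 calls between the control groups. In these comparisons same-numbered hearts did not deviate together, although replicate 1 alone had Y-linked counts in each group. In the Myh6 hearts the block ended the call of Spp1 (log2 fold change 2.50) and no other call of a member. Of the values of single members, 141 under the alternatives in EIIa-tg and 120 in Myh6-tg kept their direction and call, or moved by less than 1 SD where untested. Of the rest in Myh6-tg, 12 lost their call, 5 gained one and 6 turned direction. DESeq2 gave no adjusted p for Spp1 in the Myh6 comparison.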

Other observations

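Some marker genes of other cell types also differed in the EIIa-tg hearts. The mast cell protease genes Cma1 and Tpsb2 rose by 1.39 ± 0.30 (SE) and 1.87 ± 0.41 on the log2 scale (adjusted p = 0.0246 and 0.0251, edgeR), whereas Kit, the stem cell factor receptor of mast cells, fell by 1.34 ± 0.21 (adjusted p = 0.0166, edgeR). The 5 mast cell markers summed to 12 to 16.1 CPM against 15.7 to 18.5 CPM in the EIIa-ctl hearts. The neutrophil genes S100a9 and Csf3r rose by 1.83 ± 0.41 and 1.19 ± 0.33 (adjusted p = 0.0264 and 0.0439, edgeR), at summed levels of 8 neutrophil markers of 5.64 to 7.13 CPM against 2.16 to 2.65 CPM in the EIIa-ctl hearts. The endothelial genes Cdh5, Kdr and Tie1 fell by 0.59 ± 0.12, 0.69 ± 0.14 and 0.46 ± 0.12 (adjusted p = 0.0217, 0.0229 and 0.0387, edgeR). These calls were made in the same fit as the others in the EIIa hearts, in which none was left when either EIIa-ctl replicate 1 or EIIa-tg replicate 1 was taken out (4036 and 4173 genes at an unadjusted p under 0.05).

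In Myh6-tg hearts 4 of 6 fibroblast genes rose, with Postn at 4.23 ± 0.52, Col1a1 at 2.11 ± 0.29 and Col1a2 at 2.08 ± 0.31 (adjusted p = 0.00391, 0.00515 and 0.00653, edgeR). The antigen presentation gene H2-Ab1 and Zbtb46, a transcription factor of classical dendritic cells, fell by 1.75 ± 0.50 and 0.95 ± 0.23 (adjusted p = 0.0490 and 0.0274, edgeR), and Ms4a1, which encodes the B cell antigen CD20, fell by 4.31 ± 1.17 (adjusted p = 0.0399, edgeR). Of the 6 fits that left out a heart, H2-Ab1 passed in 1, Zbtb46 in 2 and Ms4a1 in 0, and Ms4a1 did not pass with the replicate number as a block (adjusted p = 0.0712, edgeR). The 4 B cell markers summed to at most 3.87 CPM in the Myh6 hearts. Ace, which the list of monocyte markers holds and endothelial cells also express, rose by 2.24 ± 0.24 (adjusted p = 0.00242, edgeR).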
